A study of Rattus norvegicus with 10 samples.

Results

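The collagen genes of the JUG2 line, which are enteric glia of the rat, were described across 10 arrays. A transcript cluster, the probe set of 1 gene on the array, was counted as a collagen gene where its symbol is written as Col, a number, a and a number. The symbol came from the annotation of the array or, where that gave none, from the supplementary table in which the study lists its changed genes. This gave 24 of 23188 transcript clusters, which stand for 23 collagen genes of 15 collagen types, out of 44 collagen genes in the rat gene table. Of these, 20 are named by the array annotation and 3 (Col4a3, Col5a2 and Col6a1) only by the supplementary table. For Col15a1 the brighter of its clusters was used, and that one is also named only by the supplementary table. Since a gene had to be changed to enter that table, these 4 clusters were partly chosen by the comparison reported here.

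The study asked how the transcription factor SOX10 alters the phenotype of enteric glia. JUG2 cells come from a primary culture of the rat enteric nervous system and had been transduced stably with lentiviral vectors, either Sox10 under a tetracycline operator or GFP, together with a transactivator driven by the EF1a promoter. The cells labelled SOX10 +dox (4 arrays) and GFP +dox (1 array) had received 1 µg/ml doxycycline for 48 h, while SOX10 -dox (4 arrays) and GFP -dox (1 array) had not. Total RNA was hybridized to Clariom S arrays, and the values are log2 signals, so that a difference of 1 is a 2-fold change.

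Collagens are secreted or membrane-bound proteins whose chains wind around each other into a helix, and most assemble further in the extracellular matrix. Fibrillar collagens such as types I, III and V form the fibers of connective tissue, type IV collagen forms the sheet-like network of basement membranes, and type VI collagen forms beaded filaments that link cells and basement membranes to fibers. In the gut, enteric ganglia are bordered by a basement membrane and a collagen-rich matrix.

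The sequences just upstream of 3 of the lower collagen genes are shown first, because Col4a3 and Col4a4 lie head to head and both were lower, and Col6a1 was among the calls that held under every array left out. They are the 250 bases before the transcript start in RefSeq's annotation of the rat build GRCr8. Windows of 18 of the 23 collagen genes were searched for 4 motifs on both strands: ACAAT and ACAAAG, cores of sites bound by SOX proteins, GGGCGG, the GC box, and CCAAT, the CCAAT box. ACAAT and CCAAT share the letters CAAT but cannot match at the same place on a strand. Capitals mark a match.
Col4a3, chr9:91323740-91323989, plus strand: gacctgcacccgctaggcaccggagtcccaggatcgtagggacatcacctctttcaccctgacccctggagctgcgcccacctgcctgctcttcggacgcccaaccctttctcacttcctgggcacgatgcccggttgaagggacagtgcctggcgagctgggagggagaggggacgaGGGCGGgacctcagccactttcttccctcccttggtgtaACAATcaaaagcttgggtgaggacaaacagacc
Col4a4, chr9:91323578-91323827, minus strand: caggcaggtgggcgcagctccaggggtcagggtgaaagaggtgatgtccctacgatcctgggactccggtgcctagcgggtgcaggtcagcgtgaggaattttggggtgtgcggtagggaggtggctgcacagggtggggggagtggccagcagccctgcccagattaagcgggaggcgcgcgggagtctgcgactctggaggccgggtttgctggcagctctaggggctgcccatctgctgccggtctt
Col6a1, chr20:11905440-11905689, plus strand: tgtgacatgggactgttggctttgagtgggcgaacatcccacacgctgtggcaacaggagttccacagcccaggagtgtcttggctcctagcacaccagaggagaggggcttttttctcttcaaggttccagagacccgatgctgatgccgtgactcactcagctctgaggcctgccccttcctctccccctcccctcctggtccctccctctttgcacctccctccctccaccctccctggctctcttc
The transcript starts of Col4a3 and Col4a4 are 413 bases apart and run in opposite directions, so that 88 bases belong to both windows. Only the Col4a3 window of the 3 held matches, 1 GGGCGG and 1 ACAAT, outside the shared bases. The windows of Col5a2 and Col15a1 held none, and for Col6a2, also called lower, no window was available. Over the collagen genes, ACAAT was found in 2 of 18 windows, against 30.0% of 33469 promoter windows, ACAAAG in 0 of 18 (16.3%), GGGCGG in 9 of 18 (30.5%) and CCAAT in 4 of 18 (34.0%). These counts describe letters in a window and no binding was measured here.

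Sox10 itself was read first, since it checks the labels. Its log2 signal was 12.93, 12.62 and 13.02 in SOX10 +dox replicates 2 to 4, against 6.39, 6.11 and 6.43 in SOX10 -dox replicates 2 to 4. The fitted difference was 6.55 ± 0.22 (SE), a 93.6-fold increase (limma, adjusted p = 3.3e-08). The array labelled SOX10 +dox replicate 1 read 6.74 and the array labelled SOX10 -dox replicate 1 read 12.90, both against their labels. GFP +dox read 6.20 and GFP -dox 5.70. Replicates 2 to 4 (n = 3 each) were therefore compared, and both arrays labelled replicate 1 are given apart. Since the Sox10 signal chose these replicates, the adjusted p-value of Sox10 is no independent test of its rise. Array medians lay between 6.69 and 6.86. The methods describe independent experiments, so the p-values measure the spread between such cultures, and only 1 array stood for each GFP group. Errors of differences are standard errors of a limma fit of all 4 groups, and p-values were adjusted over all 23188 transcript clusters by the Benjamini-Hochberg method. A gene was called changed where its adjusted p was under 0.05 and it differed 2-fold or more.

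With SOX10 induction, 6 of the 23 collagen genes fell, none rose and 17 were not called. The genes that fell were Col6a2 and Col6a1 of type VI, Col4a4 and Col4a3 of type IV, Col15a1 and Col5a2, by 1.55 to 1.03 on the log2 scale. Over all transcript clusters 1.24% were called lower and 2.26% higher. All 6 stand in the supplementary table of changed genes, so the count is not independent of it. With the array annotation alone, 2 of 20 collagen genes (Col6a2 and Col4a4) were called lower, and 0 of the 16 collagen genes that the supplementary table does not hold were called. The median difference was -0.36 over the 23 genes, -0.22 over the 20 named by the array annotation and -0.13 over the 16 outside the supplementary table, against -0.02 over all transcript clusters. A difference below 0 was seen in 19 of 23, against 51.8% of all. At an unadjusted p under 0.05, 8 of 23 were lower and 1 higher, against 7.55% and 7.23% of all. In 11 of 23 all SOX10 +dox arrays were below all SOX10 -dox arrays, and in 1 they were all above, against 10.5% and 9.5% of all transcript clusters. These counts also hold the members chosen through the supplementary table. Of the 20 named by the array annotation, 16 were below 0. At an unadjusted p under 0.05, 5 of the 20 were lower and 1 higher, and without overlap 8 were lower and 1 higher. Of the 16 outside the supplementary table, 12 were below 0. At an unadjusted p under 0.05, 1 of the 16 was lower and 1 higher, and without overlap 4 were lower and 1 higher. Doxycycline and SOX10 come together in this comparison, and in RNA of whole cultures fewer cells of a type and less RNA per cell cannot be told apart.

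**Figure D1:**
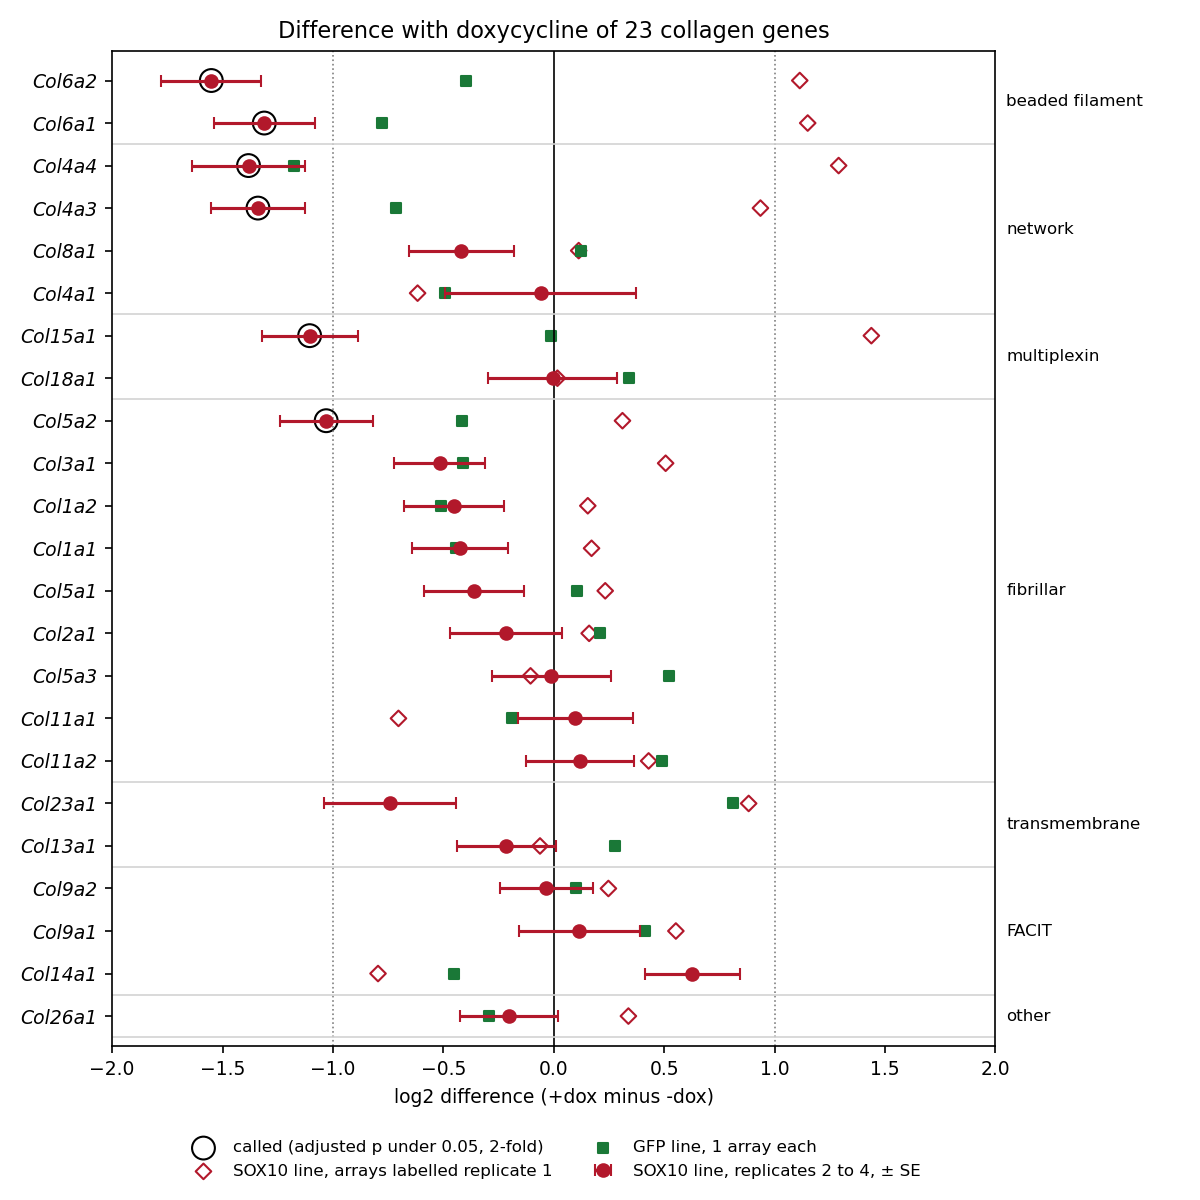
Difference in log2 signal, +dox minus -dox, of the 23 collagen genes, grouped by the kind of collagen. Filled circles with bars are the SOX10 line, replicates 2 to 4, ± SE, open diamonds the arrays labelled replicate 1, green squares the GFP line, and a ring marks a called gene; dotted lines stand at 2-fold, and the 6 ringed genes lie between -1.55 and -1.03.

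Both chains of type VI collagen named here fell. Col6a2, which encodes the α2 chain, had log2 signals of 12.22, 12.43 and 12.14 in SOX10 +dox, against 13.83, 13.55 and 14.06 in SOX10 -dox. All arrays of SOX10 +dox lay more than 1 log2 unit below all of SOX10 -dox. The difference was -1.55 ± 0.23, or 2.93-fold lower (adjusted p = 0.0028), the largest among the 23 collagen genes. Col6a1, which encodes the α1 chain that assembles with it, had 16.13, 16.18 and 16.49 in SOX10 +dox, against 17.56, 17.34 and 17.83 in SOX10 -dox. The groups did not overlap, and the difference was -1.31 ± 0.23, or 2.48-fold lower (adjusted p = 0.0082). The genes are neighbors on rat chromosome 20 (GRCr8), Col6a1 at 11905690 to 11924111 and Col6a2 at 12021182 to 12048932, with 97070 bases between them. Their changes differed by -0.24 (Col6a2 minus Col6a1, exact permutation test, two-sided p = 0.3). Both calls held under each of 12 alternative settings that used replicates 2 to 4, with an adjusted p of at most 0.019 for Col6a2 and 0.0471 for Col6a1.

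**Figure D2:**
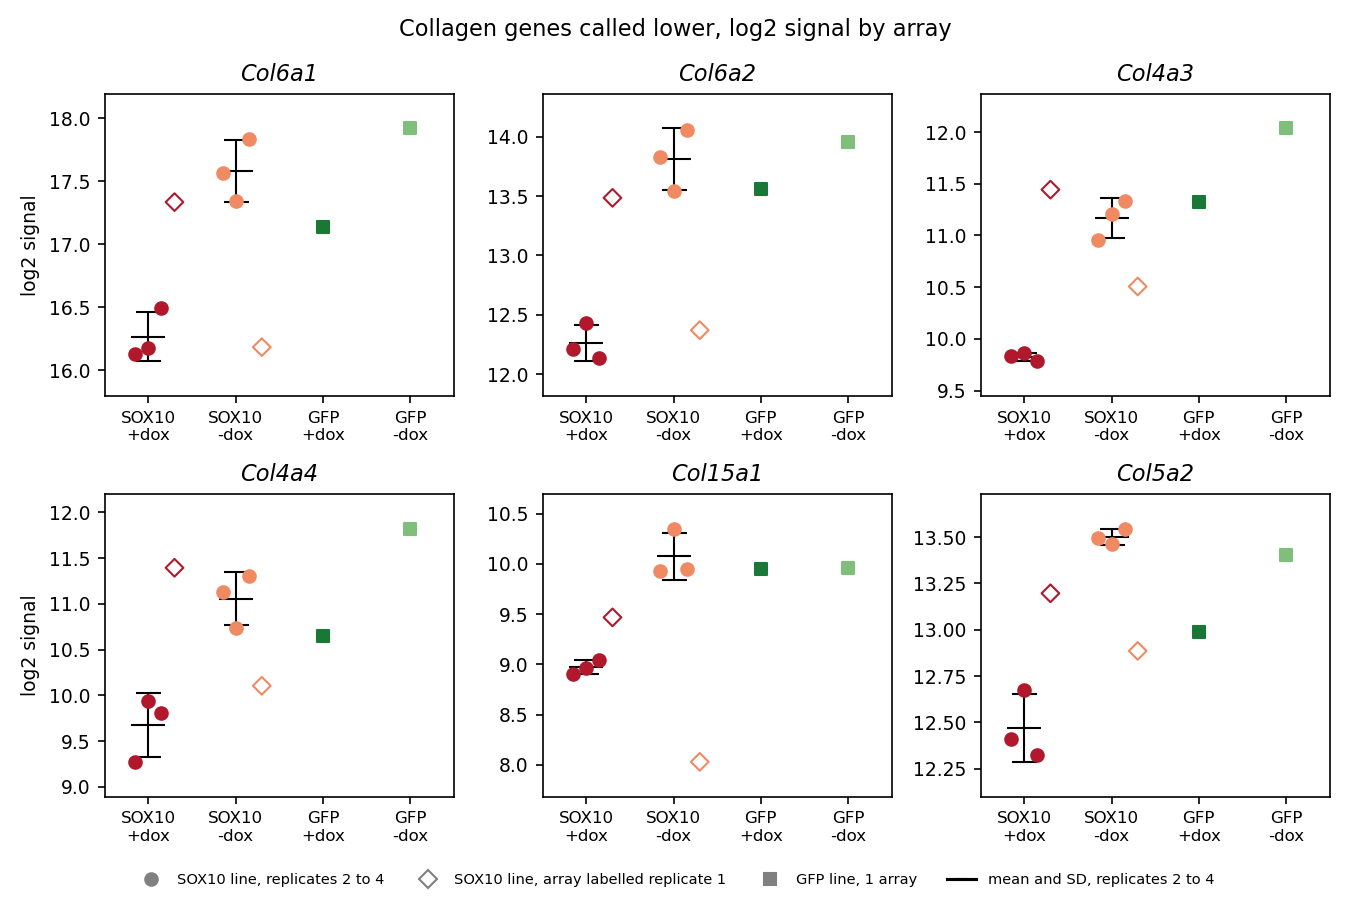
Log2 signal in each array for the 6 collagen genes called lower, with its own scale per gene and axes that do not start at 0. Circles are replicates 2 to 4 with mean and SD, open diamonds the arrays labelled replicate 1, squares the GFP arrays; in each panel the SOX10 +dox circles lie below the SOX10 -dox circles, whereas the diamonds stand the other way round.

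Of type IV collagen, the genes named here were Col4a1, Col4a3 and Col4a4. Col4a3 and Col4a4 encode the α3 and α4 chains, which with α5 form a network found in a few specialized basement membranes such as that of the kidney glomerulus. Col4a3 read 9.83, 9.87 and 9.78 in SOX10 +dox, against 10.95, 11.21 and 11.33 in SOX10 -dox. The SOX10 +dox arrays lay close together and below all SOX10 -dox arrays, with a difference of -1.34 ± 0.21, or 2.53-fold lower (adjusted p = 0.0048). Col4a4 read 9.27, 9.94 and 9.81 in SOX10 +dox, against 11.13, 10.73 and 11.30 in SOX10 -dox. Here the arrays of each group were more spread but still did not overlap, and the difference was -1.38 ± 0.26, or 2.61-fold lower (adjusted p = 0.0115). Both genes are on chromosome 9, Col4a4 at 91281324 to 91323577 and Col4a3 at 91323990 to 91453088, and start just outside either end of the stretch printed above. Their changes differed by -0.04 (exact permutation test, two-sided p = 0.8). Col4a4 no longer passed without replicate 2 of SOX10 -dox (adjusted p = 0.054) and without replicate 2 of SOX10 +dox (adjusted p = 0.0599), whereas the call of Col4a3 held in all 12 settings.

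Col4a1, the α1 chain of the type IV network present in nearly all basement membranes, was not called. It read 10.50, 10.78 and 9.07 in SOX10 +dox, against 10.71, 10.29 and 9.53 in SOX10 -dox. Replicate 4 was lowest in both groups and the groups overlapped, so that the difference of -0.06 ± 0.43 has a wide interval (95% CI -1.01 to 0.89). The change of Col4a3 minus that of Col4a1 was -1.28 on the log2 scale, and that of Col4a4 minus Col4a1 was -1.32, where the smallest p that 3 arrays a group allow is 0.1 (exact permutation test, two-sided p = 0.2 and 0.3). Taken by replicate number (2, 3 and 4) the first was -0.91, -1.84 and -1.09 and the second -1.65, -1.29 and -1.03, all below 0. The number is not shown to pair replicates 2 and 3.

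Col15a1 and Col18a1 encode the multiplexins, basement membrane collagens that carry sugar chains and whose C-terminal ends can be released as restin and endostatin. Col15a1 read 8.91, 8.97 and 9.04 in SOX10 +dox, against 9.93, 10.35 and 9.95 in SOX10 -dox. The groups did not overlap, and the difference was -1.11 ± 0.22, or 2.15-fold lower (adjusted p = 0.0162). A dimmer transcript cluster of Col15a1, the one named by the array annotation, was -0.89 ± 0.28 lower and not called (adjusted p = 0.138). The brighter cluster no longer passed without replicate 2 of SOX10 +dox (adjusted p = 0.0738), without replicate 3 of SOX10 +dox (adjusted p = 0.0691) and without replicate 3 of SOX10 -dox (adjusted p = 0.0887). Col18a1 had a difference of -0.01 ± 0.29 and was not called. The change of Col15a1 minus that of Col18a1 was -1.10 (exact permutation test, two-sided p = 0.1, the smallest 3 against 3 allows).

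Of the 9 fibrillar collagen genes only Col5a2 was called. It encodes the α2 chain of type V collagen, which lies within type I fibers and limits their width. Col5a2 read 12.41, 12.68 and 12.33 in SOX10 +dox, against 13.50, 13.46 and 13.54 in SOX10 -dox. The SOX10 -dox arrays lay close together and above all SOX10 +dox arrays, with a difference of -1.03 ± 0.21, or 2.04-fold lower (adjusted p = 0.0198). It lay closest of the 6 to the 2-fold limit, and its call was kept in 6 of 12 settings (largest adjusted p = 0.0876). It was lost without SOX10 +dox replicate 2 or 4, without any single one of the SOX10 -dox replicates, and with array weights, where the difference was -0.98.

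Col5a1 encodes the α1 chain, the partner of Col5a2 in the most common form of type V collagen. It read 11.17, 11.51 and 11.69 in SOX10 +dox, against 11.73, 11.95 and 11.78 in SOX10 -dox. The groups just failed to overlap, and the difference of -0.36 ± 0.23 was not called (adjusted p = 0.527). The change of Col5a2 minus that of Col5a1 was -0.67 (exact permutation test, two-sided p = 0.1, the smallest possible). The third type V gene, Col5a3, overlapped fully, at 6.52, 7.45 and 7.05 in SOX10 +dox and 7.25, 6.84 and 6.96 in SOX10 -dox, with a difference of -0.01 ± 0.27.

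The main fiber collagens, types I and III, were lower in all SOX10 +dox arrays than in all SOX10 -dox arrays but did not pass the test. Col1a1, the α1 chain of type I, read 18.78, 18.97 and 18.57 in SOX10 +dox, against 19.22, 19.30 and 19.07 in SOX10 -dox, a difference of -0.42 ± 0.22 (adjusted p = 0.412). Col1a2, the α2 chain, read 16.80, 16.93 and 16.61 in SOX10 +dox, against 17.21, 17.50 and 16.98 in SOX10 -dox, a difference of -0.45 ± 0.23 (adjusted p = 0.404). Col1a2 changed by -0.03 relative to Col1a1 (exact permutation test, two-sided p = 0.9). Col3a1, whose product forms type III fibers and which lies 38189 bases from Col5a2 on chromosome 9, read 16.29, 16.17 and 16.44 in SOX10 +dox, against 16.84, 16.82 and 16.80 in SOX10 -dox. Its difference was -0.52 ± 0.21 (adjusted p = 0.263), and the change of Col5a2 minus that of Col3a1 was -0.51 (exact permutation test, two-sided p = 0.1). The cartilage-type fibrillar genes Col2a1, Col11a1 and Col11a2 had differences of -0.22, 0.10 and 0.12, with overlapping groups.

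**Figure D3:**
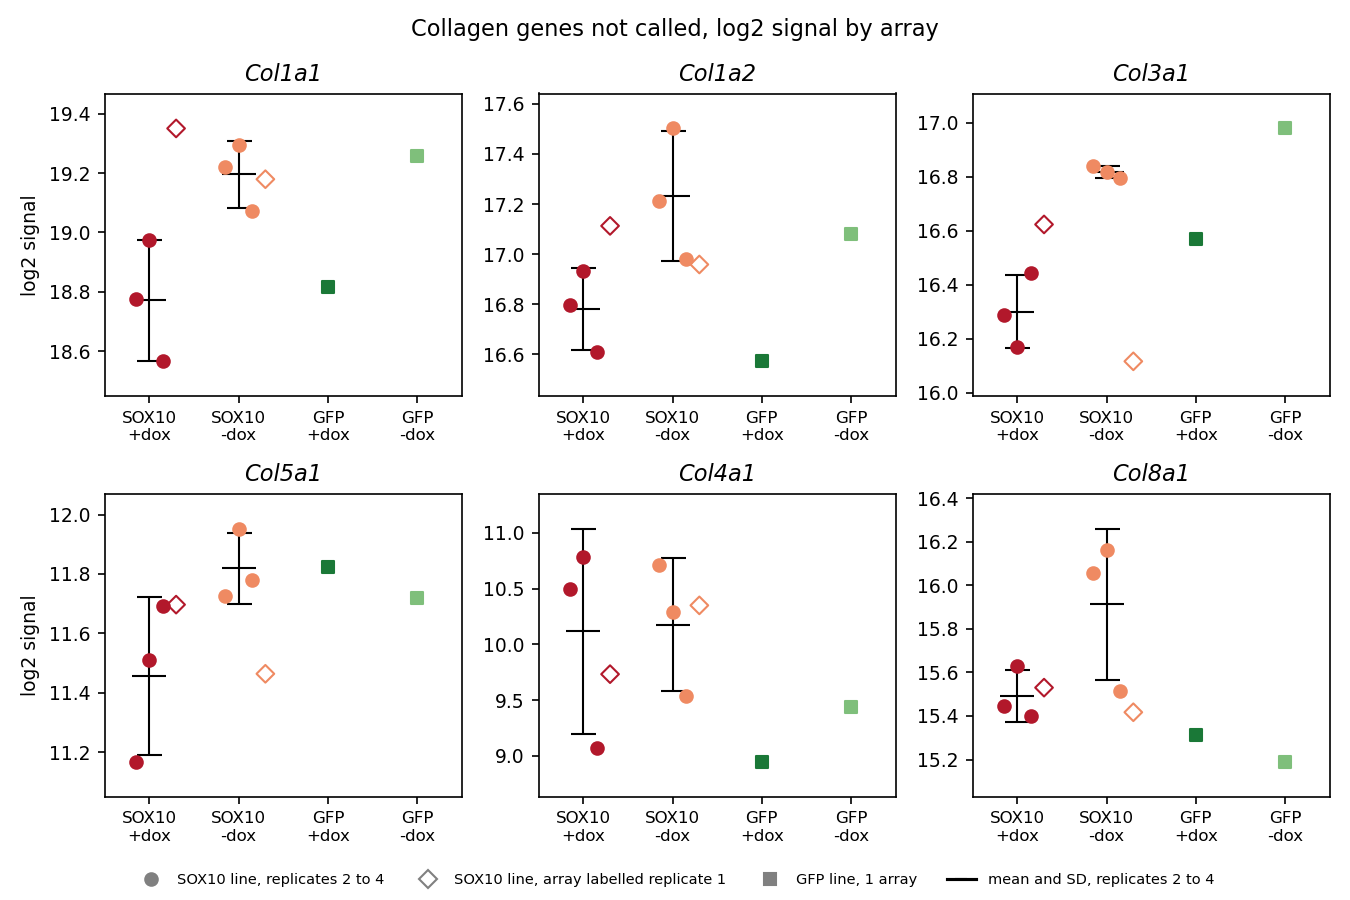
Log2 signal in each array for 6 collagen genes that were not called, with its own scale per gene and axes that do not start at 0; symbols as in the plot of the called genes. The SOX10 +dox circles lie below the SOX10 -dox circles for Col1a1, Col1a2, Col3a1 and Col5a1, and the groups overlap for Col4a1 and Col8a1.

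The other collagen genes were not called. Col23a1, a transmembrane collagen, read 7.50, 7.95 and 8.17 in SOX10 +dox, against 8.22, 8.41 and 9.23 in SOX10 -dox. These groups did not overlap, but the difference of -0.74 ± 0.30 did not pass (adjusted p = 0.268). Col8a1, a chain of the short-chain network collagen of vessel walls and the cornea, had a difference of -0.42 ± 0.24 with overlapping groups (adjusted p = 0.472). Col14a1, a collagen that binds to the surface of fibers, was the 1 gene with all SOX10 +dox arrays above all SOX10 -dox arrays. It read 4.80, 4.80 and 4.67 in SOX10 +dox, against 3.89, 4.19 and 4.31 in SOX10 -dox, a difference of 0.63 ± 0.22 (adjusted p = 0.176). These are dim signals, below the array medians of 6.69 to 6.86. Col13a1, Col26a1, Col9a1 and Col9a2 had overlapping groups and differences between -0.21 and 0.12.

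Sorted by kind of collagen, only the 23 genes named here could be counted, out of 44 in the rat gene table. Among them, 2 of 2 beaded filament genes, 2 of 4 network genes, 1 of 2 multiplexins and 1 of 9 fibrillar genes were called lower. None was called of 2 transmembrane collagens, 3 fiber-associated (FACIT) collagens and 1 other. Over all transcript clusters 1.24% were called lower. Col6a1, Col4a3, Col5a2 and the Col15a1 cluster used are named only by the supplementary table of changed genes, so these counts are not independent of the comparison. With the array annotation alone, only Col6a2 and Col4a4 were called, and a difference between kinds was not tested. The differences between chains given above are 9 pairs chosen after the values were seen. With 3 arrays a group the exact test cannot go below 0.1, so it could pass the threshold for no pair, before or after adjustment over the 9 (smallest adjusted p = 0.225), and says nothing about whether the chains changed alike.

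The GFP line received the same doxycycline and shows what collagen genes did without SOX10, on 1 array a group that was assumed to vary like the SOX10 arrays. None of the 23 genes was called between GFP +dox and GFP -dox, as 0% of all transcript clusters were in either direction. At an unadjusted p under 0.05, 1 of 23 was lower and 0 were higher, against 2.52% and 3.76% of all. That gene was Col4a4, at 10.64 in GFP +dox and 11.82 in GFP -dox, a difference of -1.17 (unadjusted p = 0.0228, adjusted p = 0.748). It was the 1 collagen gene at least 2-fold lower, and 0 were at least 2-fold higher, against 2.27% and 3.66% of all transcript clusters. Its neighbor Col4a3 read 11.32 in GFP +dox and 12.03 in GFP -dox, a difference of -0.71. The type VI chains had differences of the same sign, on 1 array a group. Col6a1 read 17.14 in GFP +dox and 17.92 in GFP -dox (-0.78), and Col6a2 read 13.56 in GFP +dox and 13.96 in GFP -dox (-0.40). Col5a2 read 12.99 in GFP +dox and 13.40 in GFP -dox (-0.41). Col15a1 hardly differed, at 9.95 in GFP +dox and 9.96 in GFP -dox (-0.01). All 6 genes called in the SOX10 line were thus below 0 in the GFP line as well, with a median of -0.56, against a median of -0.35 and 222 of 287 below 0 for all transcript clusters called lower in the SOX10 line. Over the 23 collagen genes the GFP median was -0.19, with 13 of 23 below 0, against 51.6% of all. The largest differences upward were those of Col23a1, at 9.16 in GFP +dox and 8.35 in GFP -dox, and of Col5a3, at 7.25 in GFP +dox and 6.73 in GFP -dox, neither of which passed the test. The type I and III genes had differences close to those in the SOX10 line and also did not pass. Col1a1 read 18.82 in GFP +dox and 19.26 in GFP -dox (-0.44), Col1a2 read 16.57 in GFP +dox and 17.08 in GFP -dox (-0.51), and Col3a1 read 16.57 in GFP +dox and 16.98 in GFP -dox (-0.41). Col5a1 read 11.82 in GFP +dox and 11.72 in GFP -dox, and Col4a1 read 8.95 in GFP +dox and 9.44 in GFP -dox. Col14a1 read 4.15 in GFP +dox and 4.60 in GFP -dox, a difference of -0.45 against its sign in the SOX10 line.

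Whether the response to doxycycline differed between the lines was tested directly. No collagen gene was called in this test, in which 0.0259% of all transcript clusters were called lower and 0.358% higher. At an unadjusted p under 0.05, 3 of 23 were lower and 1 higher, against 4.23% and 4.81% of all. The SOX10 effect minus the GFP effect was -1.15 for Col6a2 (95% CI -2.15 to -0.16, adjusted p = 0.471), -1.09 for Col15a1 (95% CI -2.05 to -0.13, adjusted p = 0.481) and -1.56 for Col23a1 (95% CI -2.87 to -0.24, adjusted p = 0.457). The 1 gene on the higher side was Col14a1, at 1.08 (95% CI 0.13 to 2.03, adjusted p = 0.481). For Col4a4 it was -0.21, with an interval that reaches well to both sides of 0 (95% CI -1.34 to 0.92). For Col4a3, Col6a1 and Col5a2 it was -0.63 (95% CI -1.56 to 0.31), -0.53 (95% CI -1.54 to 0.48) and -0.62 (95% CI -1.55 to 0.31). The intervals are wide, since they rest on 1 GFP array a group, and they do not show that the lines responded alike. Between the untreated lines, SOX10 -dox and GFP -dox, no collagen gene was called, as 0% of all transcript clusters were. At an unadjusted p under 0.05, 1 of 23 was lower and 0 were higher, against 1.95% and 1.38% of all. That gene was Col4a3, with a difference of -0.87 (limma, adjusted p = 1.00).

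The arrays labelled replicate 1 ran the other way. Of the 6 called genes, 6 were higher in the array labelled SOX10 +dox than in the array labelled SOX10 -dox. Col15a1 read 9.47 in the array labelled SOX10 +dox and 8.03 in the array labelled SOX10 -dox, a difference of 1.44. Col4a4 read 11.39 in the array labelled SOX10 +dox and 10.10 in that labelled SOX10 -dox (1.29), and Col4a3 read 11.44 in the array labelled SOX10 +dox and 10.51 in that labelled SOX10 -dox (0.94). The differences of the type VI chains lay between those of Col4a3 and Col4a4. Col6a1 read 17.33 in the array labelled SOX10 +dox and 16.18 in that labelled SOX10 -dox (1.15), and Col6a2 read 13.48 in the array labelled SOX10 +dox and 12.37 in that labelled SOX10 -dox (1.11). The smallest of these differences was that of Col5a2, at 13.20 in the array labelled SOX10 +dox and 12.89 in that labelled SOX10 -dox (0.31). The uncalled genes of types I, III and V differed by 0.51 (Col3a1) or less in size. In the array labelled SOX10 +dox Col1a1 read 19.35, Col1a2 17.11, Col3a1 16.62, Col5a1 11.70 and Col5a3 7.32. In the array labelled SOX10 -dox Col1a1 read 19.18, Col1a2 16.96, Col3a1 16.12, Col5a1 11.46 and Col5a3 7.43. Col23a1 was higher in the array labelled SOX10 +dox (8.34) than in that labelled SOX10 -dox (7.46), while Col4a1 read 9.73 in the array labelled SOX10 +dox and 10.35 in that labelled SOX10 -dox, and Col14a1 read 4.05 in the array labelled SOX10 +dox and 4.85 in that labelled SOX10 -dox. Over all 23 genes the sign was opposite to that of replicates 2 to 4 in 18, against 14343 of all 23188 transcript clusters. Among those called lower it was opposite in all 6 collagen genes, against 284 of 287 transcript clusters. With all 8 SOX10 arrays taken as labelled, no collagen gene was called, and the differences of the 6 genes lay between -0.88 for Col6a2 and -0.47 for Col15a1 (adjusted p = 0.973 each).

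Genes that act on collagen were counted in lists of those named by the array annotation. Members that only the supplementary table names lie outside these counts, since that table holds changed genes, and are given by their values. Of 27 genes of collagen synthesis and processing, 3 fell and 1 rose, with a median difference of -0.16. P4ha2 and P4ha3, subunits of the prolyl 4-hydroxylases that stabilize the collagen helix, fell by 1.34 ± 0.28 (adjusted p = 0.0221) and by 1.08 ± 0.25 (adjusted p = 0.0358) on the log2 scale. Loxl2, a lysyl oxidase that cross-links collagen, fell by 1.10 ± 0.25 (adjusted p = 0.0361), whereas Plod1, a lysyl hydroxylase, rose by 2.23 ± 0.24 (adjusted p = 4.0e-04). Another lysyl hydroxylase, Plod2, had a difference of -0.97 ± 0.23 without overlap (adjusted p = 0.0409) but fell short of 2-fold. Lox, the main lysyl oxidase that cross-links collagen, is named only by the supplementary table and was called lower. It read 15.13, 15.09 and 15.07 in SOX10 +dox, against 16.43, 16.33 and 17.11 in SOX10 -dox, without overlap, a difference of -1.52 ± 0.25 (adjusted p = 0.0059). In the GFP line Lox read 16.41 in GFP +dox and 16.69 in GFP -dox. The differences of P4ha2, P4ha3, Loxl2 and Plod1 in the GFP line lay between -0.24 and -0.09. Whichever single array was left out, 0 or 1 genes of this list were called lower, and without SOX10 +dox replicate 4, 3 were called higher.

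Of 9 collagen-degrading enzymes, Mmp14, a membrane-bound protease that cleaves fibrillar collagen, fell by 1.03 ± 0.22 (adjusted p = 0.0266) and the related Mmp15 rose by 2.37 ± 0.23 (adjusted p = 1.7e-04), and the median was -0.40. With any single array other than SOX10 +dox replicate 4 left out, 0 enzymes of the list were called lower. Of 9 collagen receptors named by the array annotation 0 were called, with a median of -0.04. Among these 9, Itga1, the α1 chain of a collagen-binding integrin, and Mrc2, a receptor that takes up collagen fragments, had the largest differences, -0.83 and -0.82, and did not pass (adjusted p = 0.0791 and 0.0835). Itga11, the α11 chain of an integrin that binds fibrillar collagen, is named only by the supplementary table and was called lower. It read 8.87, 8.88 and 8.92 in SOX10 +dox, against 11.09, 10.74 and 10.76 in SOX10 -dox, a difference of -1.97 ± 0.21 (adjusted p = 4.0e-04). It was also lower in the GFP line, at 9.50 in GFP +dox and 11.51 in GFP -dox (-2.01), and the difference between the lines' responses was 0.03 (95% CI -0.90 to 0.97). Of 31 proteins that carry a collagen-like stretch without being collagens, 3 fell and 0 rose, with a median of -0.02. They were C1qtnf5, a secreted member of the C1q and TNF related family (-1.58 ± 0.24, adjusted p = 0.0043), the ferritin scavenger receptor Scara5 (-1.50 ± 0.25, adjusted p = 0.0065) and C1qtnf6 (-1.44 ± 0.30, adjusted p = 0.0208). In the GFP line C1qtnf6 was also lower, by a difference of -1.14, Scara5 had -0.60 and C1qtnf5 0.35. Without SOX10 +dox replicate 2 or 3, or without SOX10 -dox replicate 2 or 4, 2 of this list were called. Ccbe1, another protein with a collagen-like stretch that only the supplementary table names, was not called (-1.18 ± 0.42, adjusted p = 0.198), with -1.46 in the GFP line.

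**Figure D4:**
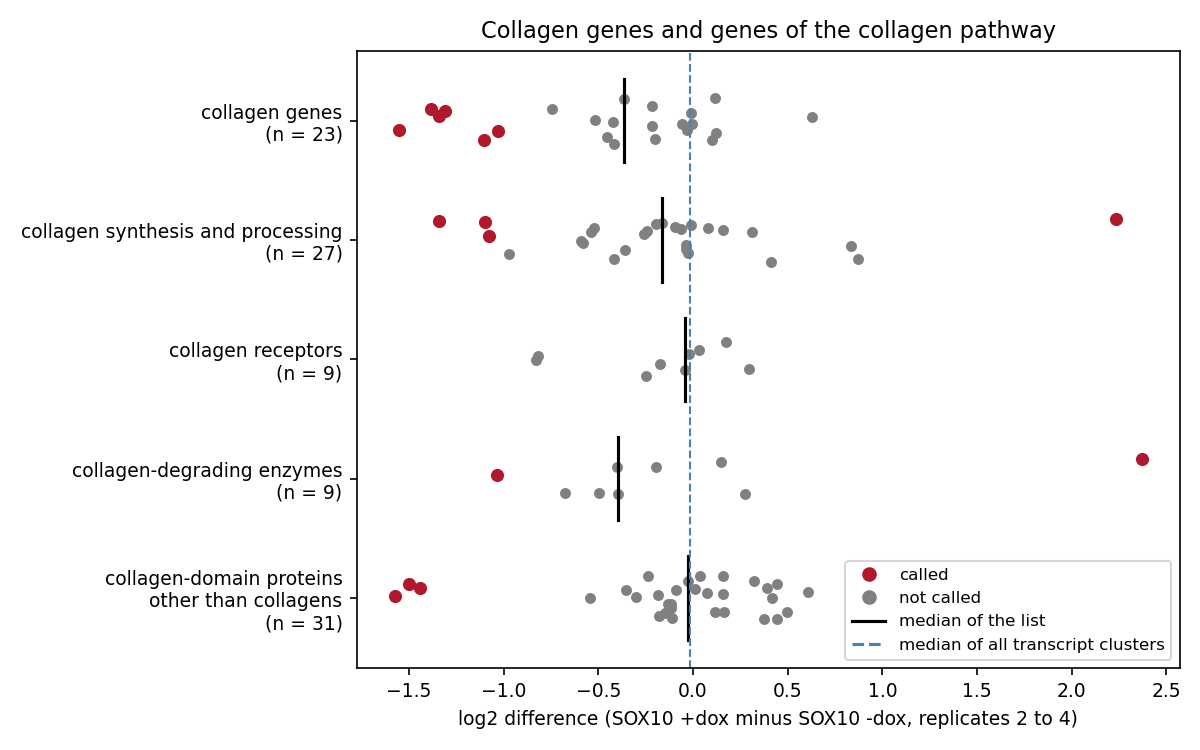
Difference in log2 signal, SOX10 +dox minus SOX10 -dox (replicates 2 to 4), of each collagen gene and of each gene in 4 lists. The lists hold genes that act on or resemble collagens and are named by the array annotation. The collagen row also holds genes named only by the supplementary table of changed genes. By array annotation alone, 2 of 20 collagen genes were called and their median was -0.22. Red points are called, gray points not, black bars are list medians and the dashed line is the median of all transcript clusters, -0.02; the vertical scatter within a list has no meaning.

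Collagens are made in quantity by fibroblasts and smooth muscle cells, so markers of these and other cells were read in the same arrays. The mean log2 signal of 8 fibroblast markers lay between 6.92 and 7.39 in SOX10 +dox, against 7.15 and 7.78 in SOX10 -dox, and 1 of the 8, Fbln1, fell (-1.34, adjusted p = 0.0178). That of 7 smooth muscle and myofibroblast markers lay between 7.91 and 8.50 in SOX10 +dox, against 8.15 and 8.82 in SOX10 -dox, and 0 of 7 were called. The ranges overlapped between the groups, but at each replicate number both means were lower in SOX10 +dox. The number is not shown to pair replicates 2 and 3. The fibroblast mean was 7.09 in SOX10 +dox and 7.15 in SOX10 -dox of replicate 2, 6.92 in SOX10 +dox and 7.46 in SOX10 -dox of replicate 3, and 7.39 in SOX10 +dox and 7.78 in SOX10 -dox of replicate 4. The smooth muscle mean was 7.92 in SOX10 +dox and 8.15 in SOX10 -dox of replicate 2, 7.91 in SOX10 +dox and 8.33 in SOX10 -dox of replicate 3, and 8.50 in SOX10 +dox and 8.82 in SOX10 -dox of replicate 4. Of the 7 smooth muscle markers, 5 had a difference below 0 and 2 above 0. The lowest were Tagln, an actin-binding protein (-1.04, adjusted p = 0.188), and Acta2, smooth muscle actin (-0.75, adjusted p = 0.343), each below 0 at every replicate number. Those above 0 were Myocd (0.30) and Actg2 (0.05). Of the 8 fibroblast markers, 6 were below 0 and 2 above, Lum (0.48) and Twist2 (0.21). Lum, Twist2, Myocd and Actg2 are dim, with group means below the array medians, as are some markers below 0 in both lists. In the GFP line the fibroblast mean was 7.46 in GFP +dox and 7.79 in GFP -dox, and the smooth muscle mean 8.79 in GFP +dox and 8.85 in GFP -dox. Of 6 glial markers 5 rose, Sox10 among them, and the mean of the 6 lay between 9.39 and 9.67 in SOX10 +dox, against 5.98 and 6.30 in SOX10 -dox. Sox10 is the gene the vector carries, and its signal decided which replicates were compared. Its rise therefore says nothing about cell type, though it enters this count and mean. Gfap, an intermediate filament gene of glia whose level varies among enteric glia, was not called, at a mean log2 signal of 5.86 in SOX10 +dox and 5.63 in SOX10 -dox. Of 8 macrophage and 6 epithelial markers 1 each rose, and of 6 endothelial and 6 neuronal markers 0 were called. Another epithelial marker, Epcam, had a difference of -0.98 without overlap (adjusted p = 0.0272) but fell short of 2-fold. It is dim, at a mean log2 signal of 3.39 in SOX10 +dox and 4.38 in SOX10 -dox. The part of these markers in the collagen differences was not tested.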

How the data were processed

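Total RNA of 10 JUG2 cultures was measured on Clariom S arrays, 4 per SOX10 group and 1 per GFP group. The authors used the Transcriptome Analysis Console and deposited 1 log2 value for each probe set and array. How these values were normalized was not given in the sources used here. Of 24834 probe sets, 1646 controls were left out and 23188 were tested; 15049 had 1 platform symbol and 455 more were named only in the study's supplementary table, whose own fold changes and p-values were not used. Precision is limited by the number of arrays.

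The deposited log2 values were fitted with limma 3.58.1 (lmFit and eBayes) in R 4.3.3, with the 4 groups in 1 model and replicate 1 of both SOX10 groups left out. Calls needed a Benjamini-Hochberg adjusted p under 0.05 and 2-fold; the methods' limit of 0.01 was an alternative. Exact permutation tests were run with scipy 1.17.1. The fit was tested on simulated data. Every collagen gene was accounted for; values in every array were printed for called genes, chains encoded next to them, types I and III and the largest GFP differences, and those of Col5a1, Col4a1 and Col14a1 were added after their values were seen. Other lists name the called genes, at most 6 each, and Itga1, Mrc2, Plod2, Ccbe1, Fbln1, Tagln, Acta2, Myocd, Actg2, Lum, Twist2, Epcam and Gfap were added in the same way. Members and lists were chosen with earlier results of these data known. Deviations of same-numbered SOX10 arrays from their group means correlated by 0.194, 0.150 and 0.411. Those of +dox replicate 3 with -dox replicate 2 correlated by 0.171, and those of +dox replicate 2 with -dox replicate 3 by 0.130. Replicate 4 of either group correlated by -0.282 to -0.217 with replicates 2 and 3 of the other. The number thus sets replicate 4 apart but is not shown to pair replicates 2 and 3. The main fit held no replicate term, and a replicate block was run as an alternative. Promoter windows came from RefSeq (GRCr8). Some genes are not reported here.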

Additional observations from a re-analysis of the deposited data

Results flagged for a closer look

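Among groups of 4 arrays that include replicate 1, 7 of 48 had an array standing apart from the other 3 by Dixon's test, which chance gives in about 1 in 20 groups. All 7 were arrays labelled replicate 1. These arrays had already been set apart by their Sox10 signal, so the Sox10 flags were fixed in advance. The other flags come from the same arrays, so the count is no test against that rate. In the array labelled SOX10 +dox replicate 1, Sox10 read 6.74, against 12.62 to 13.02 in the other SOX10 +dox arrays, Col4a3 read 11.44, against 9.78 to 9.87, Col9a2, a chain of the fiber-associated type IX collagen, read 7.44, against 7.10 to 7.15, and Col14a1 read 4.05, against 4.67 to 4.80. In the array labelled SOX10 -dox replicate 1, Sox10 read 12.90, against 6.11 to 6.43 in the other SOX10 -dox arrays, Col3a1 read 16.12, against 16.80 to 16.84, and Col5a2 read 12.89, against 13.46 to 13.54. The Sox10 signal of 12.90 is also a signal in an array that the comparisons do not use, above the level of the controls.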

How the results depend on the processing

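With all 8 SOX10 arrays as labelled, 0 collagen genes were called lower, and 0 transcript clusters of all were called lower or higher, as were 0 genes of synthesis and processing in either direction, 0 degrading enzymes in either direction and 0 collagen-domain proteins. At an adjusted p under 0.01, 3 collagen genes, 113 transcript clusters lower and 308 higher, 0 synthesis genes lower and 0 degrading enzymes lower were called. With platform names only, 2 collagen genes were lower, and with array weights 2 synthesis genes were higher. Leaving out 1 array at a time gave 3 to 5 collagen genes lower (3 without SOX10 +dox replicate 2), 140 to 324 transcript clusters lower and 333 to 639 higher, 0 to 1 synthesis genes lower and 1 to 3 higher, and 0 to 1 degrading enzymes and 2 to 3 collagen-domain proteins lower. With the replicate block, 6 collagen genes were lower and 0 higher, and 375 transcript clusters lower and 637 higher; the block changed no call of a collagen gene. In 12 settings that used replicates 2 to 4 no further collagen gene was called. Centring, quantile normalization, an intensity trend and leaving out the dimmest transcript clusters kept all 6 calls. No collagen gene was called under any setting between the GFP arrays, between the responses of the lines or between the untreated lines.

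Uncalled genes near 0 changed sign as follows. With all 8 arrays Col11a1 was -0.10, Col18a1 9.2e-05 and Col9a2 0.037. With quantile normalization Col18a1 was 0.045 and Col5a3 0.023, and with array weights Col4a1 was 0.095. With 1 array left out at a time, Col11a1 lay between -0.037 and 0.35, Col11a2 between -0.089 and 0.28, Col18a1 between -0.33 and 0.26, Col4a1 between -0.39 and 0.46, Col5a3 between -0.23 and 0.23, Col9a1 between -0.12 and 0.27 and Col9a2 between -0.12 and 0.049. Fewer arrays enter the fits with one left out; otherwise the cause was not tested. Signal over background was not analysed here, so how far it limits the dim genes is not known.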
